A study of Homo sapiens with 90 samples.

Results

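The acute phase plasma proteins are the liver secreted proteins whose blood levels move most during inflammation. They were represented here by 10 genes: CRP, SAA1, SAA4, HP, ORM1, SERPINA3, HAMP, LBP, AHSG and ITIH4. Every probe set whose symbol in the platform annotation was 1 of these was taken, which gave 20 of the 54715 probe sets of the array. Of the 20, 15 carried 1 symbol and 5 carried several. SAA1 was measured only by 2 probe sets that also carry SAA2, ORM1 by 1 probe set of its own and 2 shared with ORM2, and HP by 1 of its own and 1 shared with HPR, so a change in a shared probe set cannot be assigned to 1 gene. CRP had 2 probe sets, AHSG 2, LBP 2, ITIH4 4, and SAA4, SERPINA3 and HAMP 1 each.

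The values are log2 expression from HT HG-U133+ PM arrays of HepaRG cells, a human hepatoma line that differentiates into hepatocyte-like and biliary-like cells. All cultures were of this 1 line, bought from a commercial supplier and plated on collagen. Each culture received 1 chemical, fenbuconazole, imazalil or 2,4-D, or the vehicle DMSO, and was lysed after 24 h. There were 9 concentrations of each chemical, from 0.001 to 10 µM, and 3 arrays at each. Fenbuconazole is a triazole fungicide, imazalil an imidazole fungicide and 2,4-D a chlorophenoxy herbicide. The same 3 DMSO arrays were the vehicle control of all 3 chemicals and were normalized by RMA again with each chemical, so the 3 comparisons with DMSO share their control arrays. The sample labels give each array a P code, 1, 2 or 3, without saying what it is. It was read here as the batch of cells, which is an assumption.

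In the acute phase response, interleukin-6 released by macrophages binds its receptor on hepatocytes and activates JAK kinases and the transcription factor STAT3, while interleukin-1 and tumour necrosis factor act through NF-kB. Together with C/EBP factors these raise transcription of the positive acute phase proteins, such as CRP, the serum amyloid A proteins, haptoglobin, orosomucoid, antichymotrypsin, LPS binding protein and the iron hormone hepcidin. Negative acute phase proteins, such as albumin and fetuin-A, the product of AHSG, fall in the same response.

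The members lie on separate chromosomes except for pairs on chromosomes 3 and 11. In the GRCh38.p14 RefSeq annotation, AHSG spans chr3:186613060-186621318 and ITIH4 chr3:52812962-52830672, and SAA1 spans chr11:18266264-18269967 and SAA4 chr11:18231355-18236802. CRP is at chr1:159712289-159714589, HP at chr16:72054505-72061055, ORM1 at chr9:114323098-114326479, SERPINA3 at chr14:94612391-94624053, HAMP at chr19:35282528-35285143 and LBP at chr20:38346482-38377013. The start regions below, from 250 bases before to 50 bases after the annotated start of transcription, are printed because AHSG fell with both fungicides, CRP also had low values at 10 µM and the widest differences between P codes, and no ORM1 probe set passed at any concentration. They come from RefSeq on GRCh38.p14, which held start regions for 7 of the 10 genes, and are written 5′ to 3′ on the strand of the gene. Capitals mark matches on either strand to 4 short motifs: TTNNGNAA, bound by C/EBP factors, TTCNNNGAA, bound by STAT factors, CTGGGAA, the type II interleukin-6 response element, and GTTAAT, a half-site for HNF1.
AHSG, plus strand, chr3:186612810-186613109: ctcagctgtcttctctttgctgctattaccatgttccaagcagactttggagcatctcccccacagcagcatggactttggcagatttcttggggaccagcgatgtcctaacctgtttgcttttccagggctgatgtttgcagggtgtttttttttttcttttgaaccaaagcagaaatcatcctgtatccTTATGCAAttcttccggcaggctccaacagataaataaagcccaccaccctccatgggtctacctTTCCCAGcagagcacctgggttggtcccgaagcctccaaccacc
CRP, minus strand, chr1:159714540-159714839: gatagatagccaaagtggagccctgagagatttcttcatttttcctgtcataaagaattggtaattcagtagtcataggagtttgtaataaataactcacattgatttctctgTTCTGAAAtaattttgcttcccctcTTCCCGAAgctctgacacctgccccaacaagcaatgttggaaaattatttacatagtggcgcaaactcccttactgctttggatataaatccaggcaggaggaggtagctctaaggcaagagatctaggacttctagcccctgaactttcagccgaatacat
ORM1, plus strand, chr9:114322848-114323147: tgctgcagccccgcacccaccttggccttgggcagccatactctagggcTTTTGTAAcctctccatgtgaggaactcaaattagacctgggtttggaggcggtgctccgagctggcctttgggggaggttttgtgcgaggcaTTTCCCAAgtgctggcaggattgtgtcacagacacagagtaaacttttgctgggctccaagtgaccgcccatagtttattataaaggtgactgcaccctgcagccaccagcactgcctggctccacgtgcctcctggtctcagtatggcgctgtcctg

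The AHSG start region held 1 C/EBP match, at position -59 counted from the start site, and 1 match to the interleukin-6 element on the opposite strand, at position 7 within the transcribed bases. The CRP region held 2 C/EBP matches and the ORM1 region 2, and neither held a match to the other 3 motifs. No matches in these 3 regions overlapped. Among all 35116 start regions of the table, 36.8% held the C/EBP motif, 7.66% the STAT motif, 10.8% the interleukin-6 element and 6.88% the HNF1 half-site. Of the 7 member regions, 6 held the C/EBP motif, and HAMP, the exception, held the STAT motif at position -93. The STAT and interleukin-6 motifs overlap in their letters, and in the ITIH4 region 1 match of each overlapped. These are matches of letters and not measured binding.

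The median log2 signal of an array was 2.81 to 2.97, and its brightest probe set 13.33 to 13.56. All 8 hepatocyte markers, among them ALB and APOA1, were above the array median in DMSO, at mean levels from 11.66 to 13.30 over the 3 sets. Of 4 biliary markers KRT19 and SOX9 were above it and KRT7 and EPCAM were not, and of 7 immune cell markers CD14 was the 1 above it.

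In DMSO most members were near the top of the signal range. No probe set on the array was brighter than the ORM1 probe set 205040_PM_at, which read 13.46, 13.47 and 13.46 in the DMSO arrays of the fenbuconazole set, and 1 was brighter than the HP and HPR probe set 208470_PM_s_at, at 13.33. Whether signals this near the top could still rise was not tested. HAMP lay at the other end: its values of 2.24, 2.17 and 2.50 in the same arrays, and those in 88 of all 90 columns, were below the array median. The ITIH4 probe set 241167_PM_at was below the array median in 90 of 90 columns. No level above background can be read for HAMP or for that probe set.

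At 10 µM AHSG passed the test, lower with fenbuconazole and with imazalil, in the fit of group means without a block. CRP had low values with both fungicides and passed there only in other fits: with the P code as a block, 37020_PM_at with fenbuconazole (limma adjusted p = 0.0180) and 205753_PM_at with imazalil (adjusted p = 0.0476), and against the lowest concentrations with fenbuconazole, as did ITIH4 37201_PM_at. Those fits called more of all 54715 probe sets as well. With fenbuconazole 189 passed without a block, 256 with it and 514 against the lowest concentrations. With imazalil these counts were 222, 317 and 557. Each concentration was compared with DMSO in limma, with p-values adjusted by Benjamini-Hochberg over all 54715 probe sets and a threshold of 0.05. With fenbuconazole 2 of the 20 member probe sets passed, both for AHSG and both lower, while 0.345% of all probe sets passed. With imazalil the same 2 passed, beside 0.406% of all probe sets. With 2,4-D none passed, beside 0% of all probe sets; at an unadjusted p under 0.05 the limma test had 0 members and 3035 probe sets. The median log2 fold change of the 20 member probe sets was -0.10, -0.04 and -0.03 for fenbuconazole, imazalil and 2,4-D, and the median of all probe sets was within 0.01 of 0 in each.

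**Figure D1:**
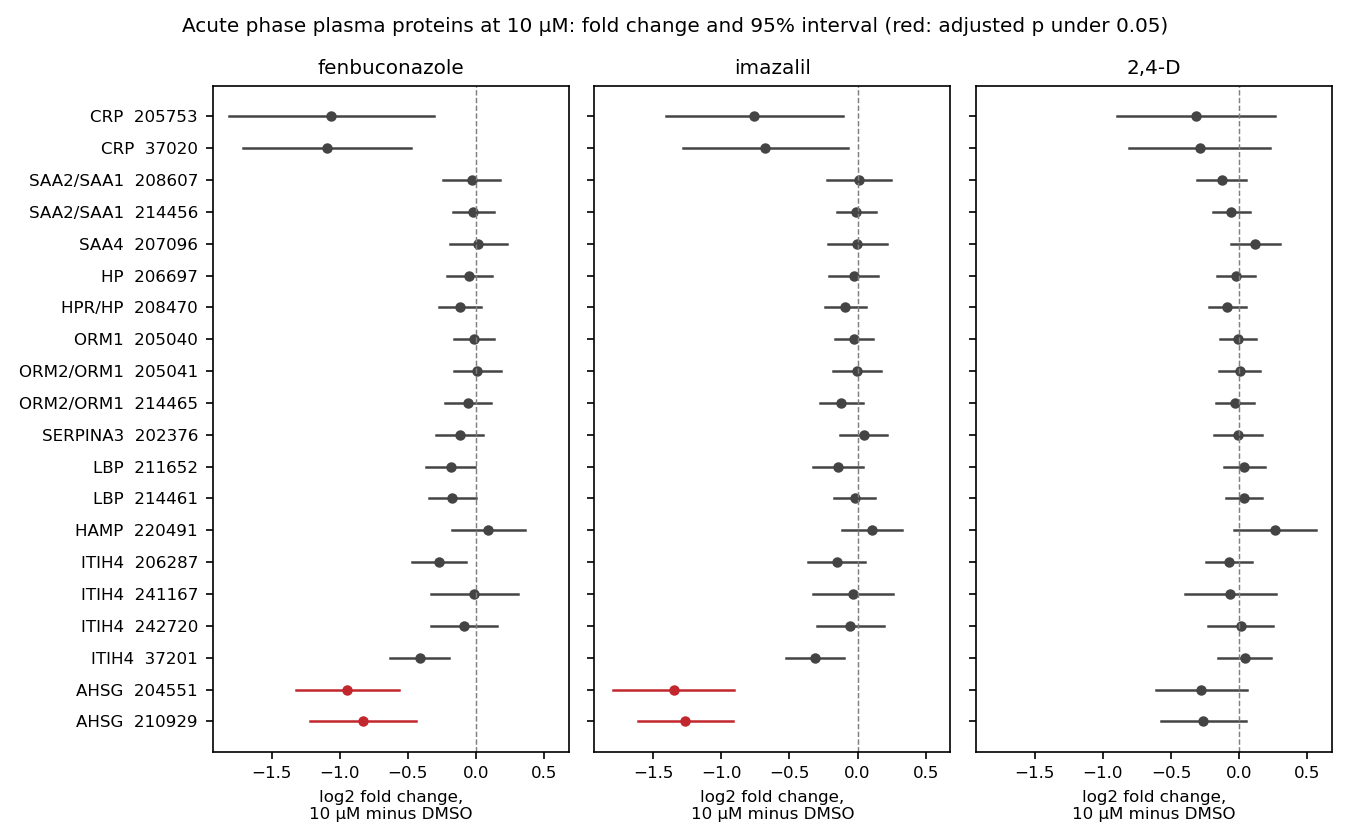
Log2 fold change at 10 µM against DMSO (x axis) of the 20 probe sets of the acute phase plasma proteins (y axis, symbol and probe set number), 1 panel per chemical. Points are the difference of the means of 3 arrays, lines are 95% intervals of the limma fit, and red marks an adjusted p under 0.05: only the AHSG probe sets with fenbuconazole (-0.95 and -0.83) and imazalil (-1.35 and -1.26) are red, and most other points lie within 0.2 of 0.

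AHSG encodes fetuin-A, a liver glycoprotein of blood that binds calcium phosphate. In the fenbuconazole set its probe set 204551_PM_s_at read 9.30, 9.31 and 9.24 in the DMSO arrays of P codes 1, 2 and 3, and 8.47, 7.89 and 8.65 at 10 µM. All 3 treated arrays were below all 3 controls, with P code 2 the lowest. The fall was -0.95 on the log2 scale (SE 0.18, limma adjusted p = 0.00963), a 1.93-fold lower level. The second probe set, 210929_PM_s_at, read 10.54, 10.51 and 10.81 in DMSO and 9.99, 9.27 and 10.11 at 10 µM, a fall of -0.83 (SE 0.19, limma adjusted p = 0.0487). Both probe sets thus gave separated groups and the same direction in each P code: the differences within P codes 1, 2 and 3 were -0.83, -1.42 and -0.60 for the first and -0.55, -1.24 and -0.70 for the second. The calls were not all kept when a P code was left out, which leaves fewer arrays in each group. Fewer of all probe sets passed then as well: 89, 64 and 127 without P code 1, 2 and 3, and 189 with all. Without P code 1 neither probe set passed (log2 fold changes -1.01 and -0.97), without P code 2 neither passed (-0.71 and -0.62), and without P code 3 only 204551_PM_s_at did.

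With imazalil the AHSG values at 10 µM were lower still. Probe set 204551_PM_s_at read 9.27, 9.31 and 9.25 in DMSO and 7.90, 7.72 and 8.16 at 10 µM, a fall of -1.35 (SE 0.22, limma adjusted p = 0.00114) or 2.55-fold. Probe set 210929_PM_s_at read 10.55, 10.58 and 10.79 in DMSO and 9.42, 9.07 and 9.65 at 10 µM, a fall of -1.26 (SE 0.17, limma adjusted p = 7.11e-05) or 2.40-fold. For both probe sets the treated arrays lay far below the controls, with no overlap. Within P codes 1, 2 and 3 the differences were -1.38, -1.59 and -1.09 for the first probe set. Leaving out P code 2 kept the size (-1.23 and -1.14) but neither probe set then passed, while both passed without P code 1 and without P code 3. Of all probe sets 87, 48 and 67 passed without P code 1, 2 and 3, and 222 with all. Whether fewer cells expressed AHSG or each cell held less of its RNA cannot be told apart in these bulk samples.

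The 2,4-D arrays at 10 µM were also below all DMSO arrays for both AHSG probe sets, by less. Probe set 204551_PM_s_at read 9.32, 9.34 and 9.28 in DMSO and 9.19, 8.82 and 9.09 at 10 µM, a difference of -0.28 with a 95% interval from -0.61 to 0.06 (limma adjusted p = 0.938). Probe set 210929_PM_s_at gave -0.26, with an interval from -0.57 to 0.05.

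Over most of the lower concentrations the AHSG means lay near or above the DMSO level. The means of 204551_PM_s_at with fenbuconazole were between 9.37 and 9.60 from 0.001 to 0.3 µM, 9.19 at 1 µM, 9.31 at 3 µM and 8.34 at 10 µM, so the step lay between 3 and 10 µM. With imazalil they were between 9.12 and 9.56 from 0.001 to 0.3 µM, 8.85 at 1 µM and 8.89 at 3 µM, before 7.93 at 10 µM. The 1 µM arrays of imazalil read 8.38, 8.96 and 9.22 and the 3 µM arrays 8.37, 9.08 and 9.22, all below the 3 controls, with P code 1 lowest at both. Neither of those concentrations passed (log2 fold changes -0.43 and -0.39). Against the 12 arrays of the 4 lowest concentrations in place of DMSO, the AHSG difference at 10 µM was -1.23 with fenbuconazole and -1.43 with imazalil (limma adjusted p = 4.46e-06 and 6.73e-06). This larger reference called 514 and 557 of all probe sets, where DMSO called 189 and 222.

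**Figure D2:**
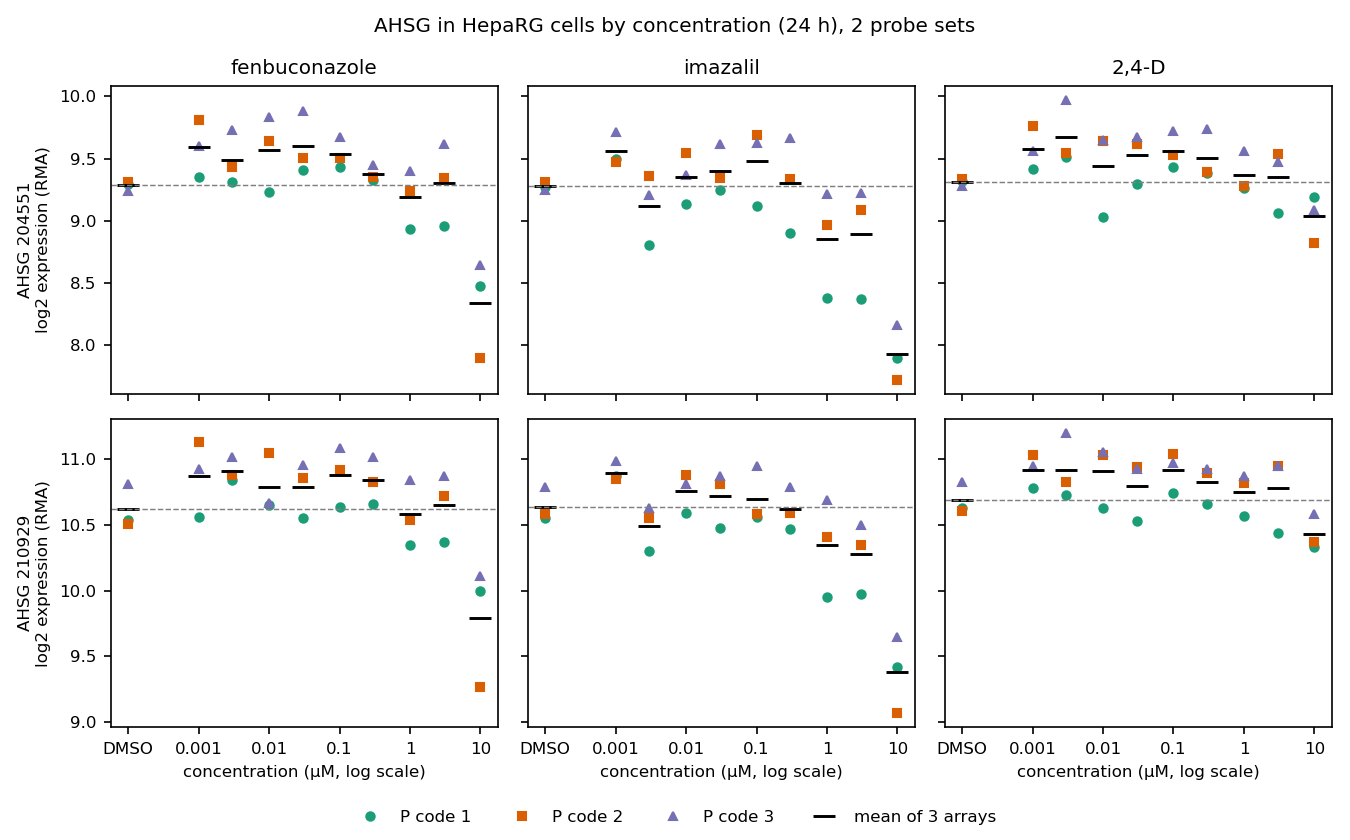
AHSG log2 expression (y axis) by concentration in µM on a log scale, with DMSO at the left, for probe set 204551_PM_s_at (top row) and 210929_PM_s_at (bottom row) in each chemical's set. Each point is 1 array, coloured by P code, black bars are means of 3 arrays and the dashed line is the DMSO mean: the 10 µM points of fenbuconazole and imazalil stand below all others of their panel, and the P code 1 arrays of imazalil at 1 and 3 µM come nearest to them.

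CRP, C-reactive protein, is the pentraxin that marks dying cells and bacteria for complement and is the classic positive acute phase protein. Its values at 10 µM were lower than in DMSO with both fungicides, by about as much as those of AHSG with fenbuconazole and by less with imazalil, but the arrays of 1 group were spread more widely and neither probe set passed. With fenbuconazole, probe set 205753_PM_at read 6.49, 6.63 and 7.15 in DMSO and 6.01, 4.44 and 6.63 at 10 µM in P codes 1, 2 and 3. The groups overlapped, with the highest 10 µM array at 6.63 above the lowest DMSO array at 6.49. The P code 2 array at 10 µM was the lowest by far. The difference was -1.06 (SE 0.37, limma adjusted p = 0.441). Probe set 37020_PM_at read 6.81, 6.87 and 7.47 in DMSO and 6.36, 5.11 and 6.39 at 10 µM, which did not overlap, with a difference of -1.09 (SE 0.30, limma adjusted p = 0.180). With the P code as a block this probe set passed (limma adjusted p = 0.0180) and 205753_PM_at did not (adjusted p = 0.0698). Within P codes 1, 2 and 3 the differences were -0.45, -1.76 and -1.07 for 37020_PM_at.

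With imazalil, CRP probe set 205753_PM_at read 6.58, 6.64 and 7.16 in DMSO and 5.99, 5.56 and 6.54 at 10 µM. The groups were separate by a narrow margin, and the difference was -0.76 (SE 0.32, limma adjusted p = 0.496). With the P code as a block it passed (limma adjusted p = 0.0476), whereas 37020_PM_at, at -0.68, did not (adjusted p = 0.182). With 2,4-D the differences were -0.32 and -0.29, with 95% intervals from -0.90 to 0.26 and from -0.81 to 0.23, and the block did not bring either past the threshold. At concentrations below 10 µM the 2 CRP probe sets lay between -0.17 and 0.60 of their DMSO mean over the 3 chemicals. Against the 4 lowest concentrations both CRP probe sets passed with fenbuconazole, at -1.43 and -1.41 (limma adjusted p = 0.00778 and 0.000932), and neither with imazalil, at -0.96 and -0.91. Of all probe sets 514 and 557 passed in these fits.

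**Figure D3:**
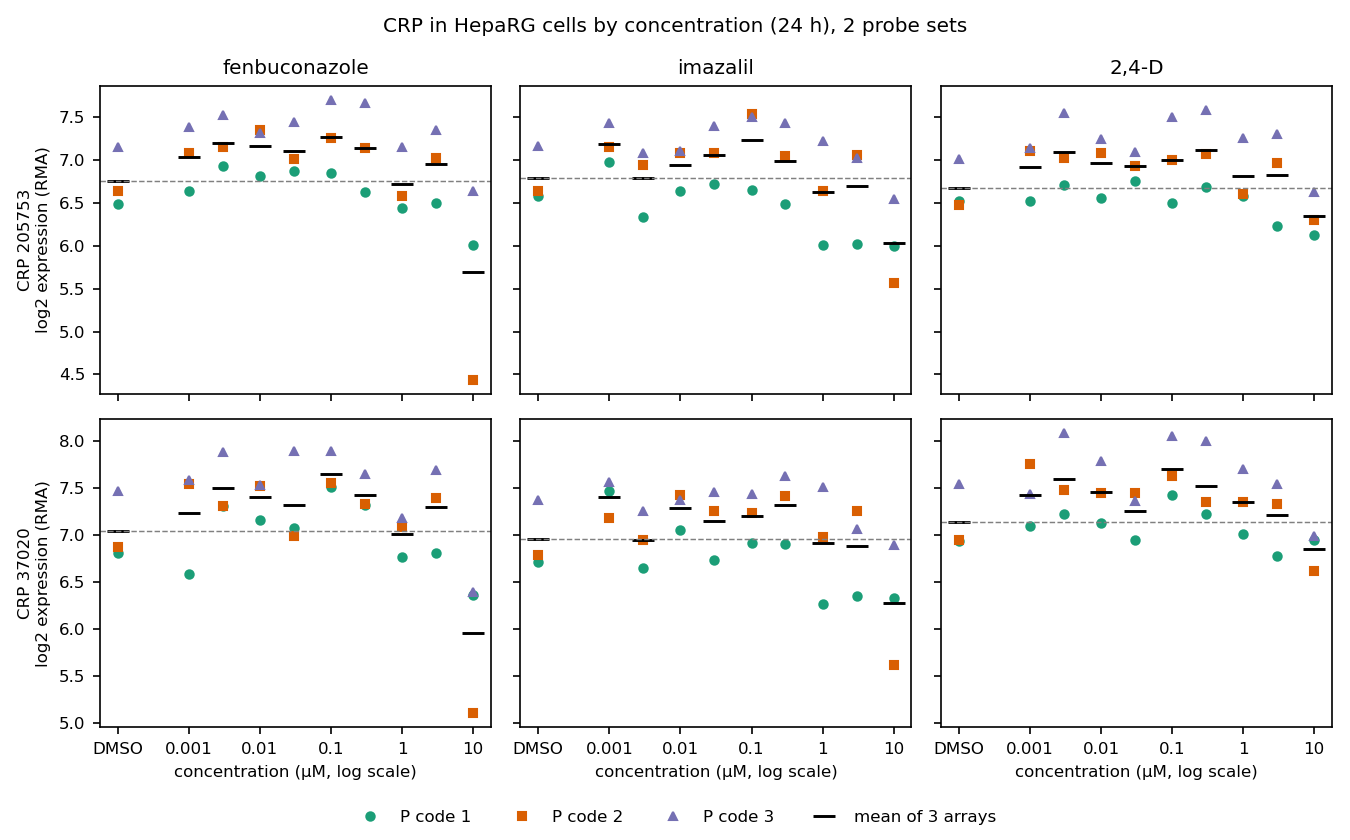
CRP log2 expression (y axis) by concentration in µM on a log scale, with DMSO at the left, for probe set 205753_PM_at (top row) and 37020_PM_at (bottom row). Each point is 1 array, coloured by P code, black bars are means of 3 arrays and the dashed line is the DMSO mean: P code 3 is the highest point in most groups, and the P code 2 array at 10 µM fenbuconazole (4.44 and 5.11) is the lowest.

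ITIH4, an inter-alpha-trypsin inhibitor heavy chain that is cleaved by plasma kallikrein, had 4 probe sets with unlike values. Probe set 37201_PM_at read 6.69, 6.79 and 6.78 in DMSO and 6.36, 6.17 and 6.48 at 10 µM fenbuconazole, a difference of -0.41 (SE 0.10, limma adjusted p = 0.0992). With imazalil it read 6.45, 6.26 and 6.55 at 10 µM, a difference of -0.31 (adjusted p = 0.299), and with 2,4-D 6.87, 6.64 and 6.89, a difference of 0.04. At 10 µM the treated arrays were below all controls with both fungicides and overlapped them with 2,4-D. Over all 9 concentrations they were below all controls at 3 of fenbuconazole, 2 of imazalil and 4 of 2,4-D, so such separation was not particular to the fungicides. The brighter probe set 206287_PM_s_at gave -0.27 and -0.15 for the fungicides, and 242720_PM_at gave -0.09 and -0.05. Against the 4 lowest concentrations, 37201_PM_at passed with fenbuconazole (-0.39, limma adjusted p = 0.0129), beside 514 of all 54715 probe sets.

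The signals of SAA1, SAA4, HP, ORM1, SERPINA3 and LBP stayed close to DMSO. SAA1 and SAA4 encode apolipoproteins of high density lipoprotein, HP the haemoglobin binding haptoglobin, ORM1 a drug binding glycoprotein, SERPINA3 a protease inhibitor and LBP a carrier of bacterial lipopolysaccharide. Their 11 probe sets differed from DMSO at 10 µM by -0.18 to 0.02 with fenbuconazole, -0.14 to 0.05 with imazalil and -0.13 to 0.12 with 2,4-D, and none passed. The widest 95% intervals, each for 1 probe set alone, reached from -0.36 to 0.30 on the log2 scale. They bound a change of the signal in these bulk samples. For the ORM1 and HP probe sets near the top of the signal range, whether the signal could still rise was not tested. The smallest limma adjusted p of these probe sets at 10 µM was 0.730.

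Among them, LBP had the lowest fold changes with fenbuconazole: probe set 214461_PM_at read 11.22, 11.35 and 11.29 in DMSO and 11.05, 11.11 and 11.19 at 10 µM, a difference of -0.17 (limma adjusted p = 0.749). Its groups did not overlap, by a narrow gap, while those of the other LBP probe set did. SERPINA3 read 12.36, 12.41 and 12.17 in DMSO and 12.15, 12.24 and 12.20 at 10 µM fenbuconazole, and the groups overlapped. The ORM1 probe set 205040_PM_at read 13.47, 13.39 and 13.48 at 10 µM fenbuconazole and 13.43, 13.33 and 13.42 at 10 µM imazalil, and its group means differed from DMSO by -0.02 and -0.03. The HP probe set 206697_PM_s_at read 12.97, 13.07 and 13.02 in DMSO and 13.05, 12.95 and 12.91 at 10 µM fenbuconazole. SAA4, the constitutive member of its family, read 10.03, 10.07 and 10.17 in DMSO and 10.12, 9.93 and 10.27 at 10 µM fenbuconazole, again overlapping.

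HAMP encodes hepcidin, which closes the iron exporter ferroportin. Its probe set read between 2.07 and 3.00 over all 90 columns and did not pass at any concentration. Since these values lie at the background of the array, they say nothing about the direction of HAMP.

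Counted by separation alone, 7 of the 20 member probe sets had all 3 arrays at 10 µM fenbuconazole below all 3 DMSO arrays, against 5.17% of all probe sets. The count was 8 with imazalil against 5.69% and 5 with 2,4-D against 4.02%. The separated probe sets came from AHSG, CRP, ITIH4, LBP and HP with HPR for fenbuconazole, from these and ORM1 with ORM2 for imazalil, and from AHSG, HP with HPR and SAA1 with SAA2 for 2,4-D. Such separation was not particular to 10 µM. Over the 24 lower concentrations of the 3 chemicals, between 0 and 7 member probe sets lay above all DMSO arrays and between 0 and 4 below them; the 7 were at 0.1 µM fenbuconazole, against 6.31% of all probe sets, and none of them passed the limma test. The counts share their control arrays, and several probe sets measure the same gene.

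No member passed at any of the 8 concentrations below 10 µM, with the P code as a block or without it. In the limma test 1, 4 and 4 member comparisons with fenbuconazole, imazalil and 2,4-D had an unadjusted p under 0.05. Of all 54715 probe sets, 2225 to 3516, 2583 to 4712 and 3067 to 4940 did so at a single one of these concentrations. Of all probe sets, 0.00366% passed at 1 or more of those concentrations of fenbuconazole, 0.0384% of imazalil and 0.00366% of 2,4-D. The smallest limma adjusted p among the 160 member comparisons of a chemical was 0.782, 0.751 and 0.525, and their log2 fold changes ran from -0.43 to 0.60.

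**Figure D4:**
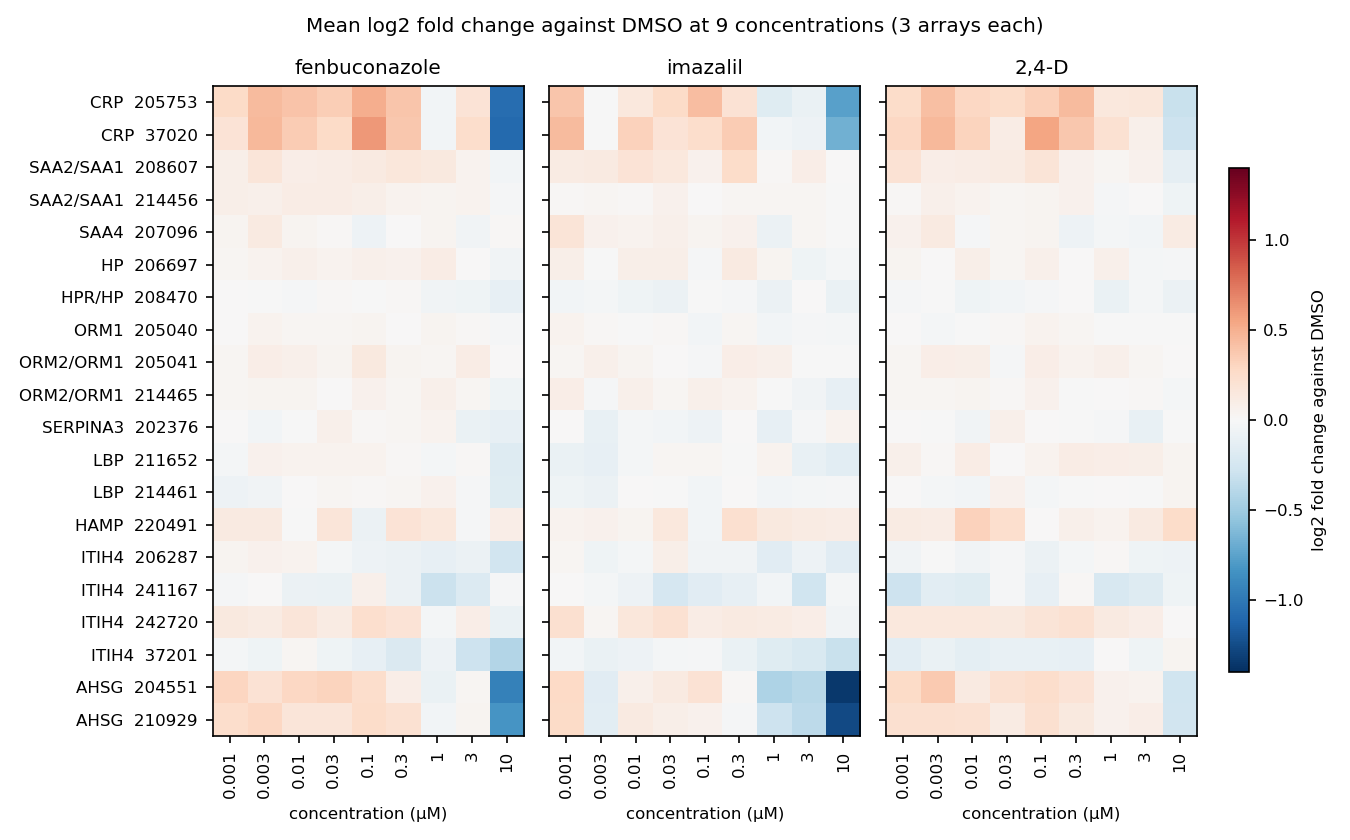
Mean log2 fold change against DMSO (colour, blue lower and red higher) of the 20 probe sets (rows) at 9 concentrations in µM (columns), 1 panel per chemical, 3 arrays per cell. The darkest blue cells are AHSG and CRP at 10 µM fenbuconazole and imazalil, the rows from SAA2/SAA1 to LBP stay pale at every concentration, and the CRP rows are mostly red below 1 µM, where no cell passed the test.

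Over the 9 concentrations together, the moderated F test called 1 member probe set with fenbuconazole, AHSG 204551_PM_s_at (limma adjusted p = 0.00581), beside 0.232% of all probe sets. The second AHSG probe set was just outside the threshold (adjusted p = 0.0509). With the P code as a block the count was 4, both probe sets of AHSG and of CRP. Of all 54715 probe sets 180 then passed, in place of 127. Without P code 1, 2 or 3 the member count was 0 each time. With imazalil both AHSG probe sets passed (limma adjusted p = 0.00197 and 0.000130), beside 0.214% of all, and the count was 0 without P code 2 and 1 without P code 3. With the block CRP 205753_PM_at passed as well (adjusted p = 0.0140), beside 192 of all 54715 probe sets in place of 117. With 2,4-D the count was 0, beside 0.00548% of all probe sets. In the limma test 2 members and 3836 of all 54715 probe sets had an unadjusted p under 0.05.

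A slope on log10 concentration in the 27 treated arrays of a chemical does not use DMSO. With imazalil both AHSG probe sets fell with concentration, by -0.28 per 10-fold step (SE 0.06, limma adjusted p = 0.0142) and -0.26 (SE 0.05, adjusted p = 0.00640), beside 0.424% of all probe sets that passed. The count was 0 without P code 1 or 2 and 1 without P code 3, and with the P code as a block CRP 205753_PM_at also passed (-0.19 per 10-fold, adjusted p = 0.0446). Of all 54715 probe sets 405 passed with the block, in place of 232. With fenbuconazole the slopes of AHSG were -0.22 and -0.18 and no member passed (limma adjusted p = 0.0654 and 0.123), beside 0.0475% of all probe sets. At an unadjusted p under 0.05 there were 6 members and 3892 of all 54715 probe sets. With the block 204551_PM_s_at passed (limma adjusted p = 0.0276), beside 40 of all 54715 probe sets in place of 26. With 2,4-D the slopes were -0.11 and -0.09 and no member passed, beside 0.00914% of all probe sets. Here 6 members and 3054 of all probe sets had an unadjusted p under 0.05.

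The chemicals were compared with each other at 10 µM in a limma fit of all treated columns after subtraction of each set's DMSO mean, with 3 pairs and adjustment over all probe sets within each pair. Imazalil gave lower AHSG than 2,4-D by -1.07 (SE 0.21, adjusted p = 0.00202) for 204551_PM_s_at and by -1.0 (SE 0.18, adjusted p = 0.000631) for 210929_PM_s_at. These 2 probe sets were the members called, beside 0.389% of all probe sets, and neither was called without P code 2 (-1.07 and -0.86). Fenbuconazole gave lower ITIH4 37201_PM_at than 2,4-D by -0.45 (SE 0.10, adjusted p = 0.00885), the 1 member called beside 0.356% of all probe sets; leaving out any P code lost this call, with differences between -0.44 and -0.46.

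For AHSG the difference of fenbuconazole from 2,4-D was -0.67 and -0.57, not called without the block (limma adjusted p = 0.253 and 0.296) and called with the P code as a block (adjusted p = 0.00701 and 0.0127). Between the triazole fenbuconazole and the imidazole imazalil no member passed, beside 0.269% of all probe sets, and none passed with the block. In the limma test 3 members had an unadjusted p under 0.05 there. In the pairs of fenbuconazole and of imazalil with 2,4-D, 8 and 4 did. All probe sets under that threshold were not counted for these pairs, so the member counts cannot be set against a share. For AHSG the difference of fenbuconazole from imazalil was 0.40 (95% interval -0.01 to 0.82) and 0.43 (0.07 to 0.80), and for CRP it was -0.31 (-1.02 to 0.41) and -0.42 (-1.03 to 0.20). These intervals do not show that the 2 fungicides act alike on AHSG or CRP.

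CRP and AHSG also had the widest differences between P codes among the members. The limma test between P codes was a moderated F over the 3 codes together. The differences of P code 3 from P code 1 printed beside its p-values give a size and were not tested by themselves. With group means in the fit, the P codes differed in CRP in every set: P code 3 was above P code 1 by 0.72, 0.74 and 0.71 for 205753_PM_at in the fenbuconazole, imazalil and 2,4-D sets (limma adjusted p = 0.00661, 7.19e-05 and 8.44e-07) and by 0.55, 0.62 and 0.58 for 37020_PM_at. For 205753_PM_at, P code 3 held the highest array in 9, 8 and 10 of the 10 groups of the 3 sets and P code 1 the lowest in 9 of 10 in each. The DMSO group counted in each set holds the same 3 arrays.

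AHSG followed the same order. P code 3 was above P code 1 by 0.33, 0.44 and 0.28 for 204551_PM_s_at and by 0.32, 0.35 and 0.33 for 210929_PM_s_at. The first passed in the fenbuconazole and imazalil sets (limma adjusted p = 0.0433 and 0.00419) and the second in the imazalil and 2,4-D sets (adjusted p = 0.00529 and 0.000350). In the imazalil set SAA4 also passed, with P code 3 above P code 1 by 0.21 (adjusted p = 0.00852) and P code 1 lowest in 10 of 10 groups.

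In all, 3, 5 and 3 of the 20 member probe sets passed between P codes in the fenbuconazole, imazalil and 2,4-D sets, against 2.86%, 3.13% and 4.82% of all probe sets. Without P code 1 the counts were 0, 0 and 1, and without P code 3 they were 0, 0 and 2. What differed between the P codes is not given by the labels.

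Other genes of the lists differed between the same P codes, and those named here were chosen after their values were seen. Of the 14 genes of interleukin-6, JAK and STAT3 signalling 5, 4 and 6 passed in the fenbuconazole, imazalil and 2,4-D sets, and of the 13 of interleukin-1 and NF-kB signalling 4 passed in each. Of 8 liver transcription factors 3, 2 and 2 passed, and of 14 genes of hepcidin control 1, 1 and 4. Of 17 further positive acute phase proteins 0, 2 and 1 passed, and of 14 negative acute phase and other plasma proteins 0 in each set. TNFAIP3, an NF-kB target that restrains NF-kB, was lower in P code 3 than in P code 1 by -0.90, -0.95 and -0.96 (limma adjusted p = 2.1e-13, 4.85e-14 and 1.07e-14). NFKBIZ, NFKBIA, IL6 and SOCS3 were also lower in P code 3 in every set, by -0.48 to -0.89. IL6 lay near the array median: in the imazalil set it read 3.53, 2.96 and 2.93 in P codes 1, 2 and 3. The array medians of that set were 2.81 to 2.91. From P code 1 to P code 3 TNFAIP3, NFKBIZ, NFKBIA, IL6 and SOCS3 ran opposite to CRP and AHSG. P code 2 lay near P code 3 for TNFAIP3, at 8.53, 7.53 and 7.63 in P codes 1, 2 and 3 of the fenbuconazole set. CRP 205753_PM_at read 6.61, 6.76 and 7.33 there. CISH of the interleukin-6 list went the other way, higher in P code 3 by 0.38, 0.25 and 0.24, and passed in every set. IL6R was higher by 0.23 in the 2,4-D set and passed there. ID1 of the hepcidin list was lower in P code 3 by -0.61, -0.62 and -0.71. Of the liver transcription factors, CEBPD was lower by -0.24, -0.31 and -0.24 and FOXA1 higher by 0.29, 0.19 and 0.31. ID1, CEBPD and FOXA1 passed in every set. Of the cell type markers, SOX9, 1 of the 4 biliary markers, was lower in P code 3 by -0.77, -0.77 and -0.66. KRT19, the other biliary marker above the array median, was higher by 0.14, 0.16 and 0.09 and did not pass. The mesenchyme marker DCN was higher by 0.45, 0.50 and 0.47. Both SOX9 and DCN passed in every set. The mesenchyme marker COL3A1 passed in the imazalil and 2,4-D sets, where P code 3 was above P code 1 by 0.18 and 0.24. In the imazalil set its P code 2 was the highest, at 6.195, 6.436 and 6.377 in P codes 1, 2 and 3. None of the hepatocyte or immune cell markers passed. The part of these genes in the CRP and AHSG differences was not tested.

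**Figure D5:**
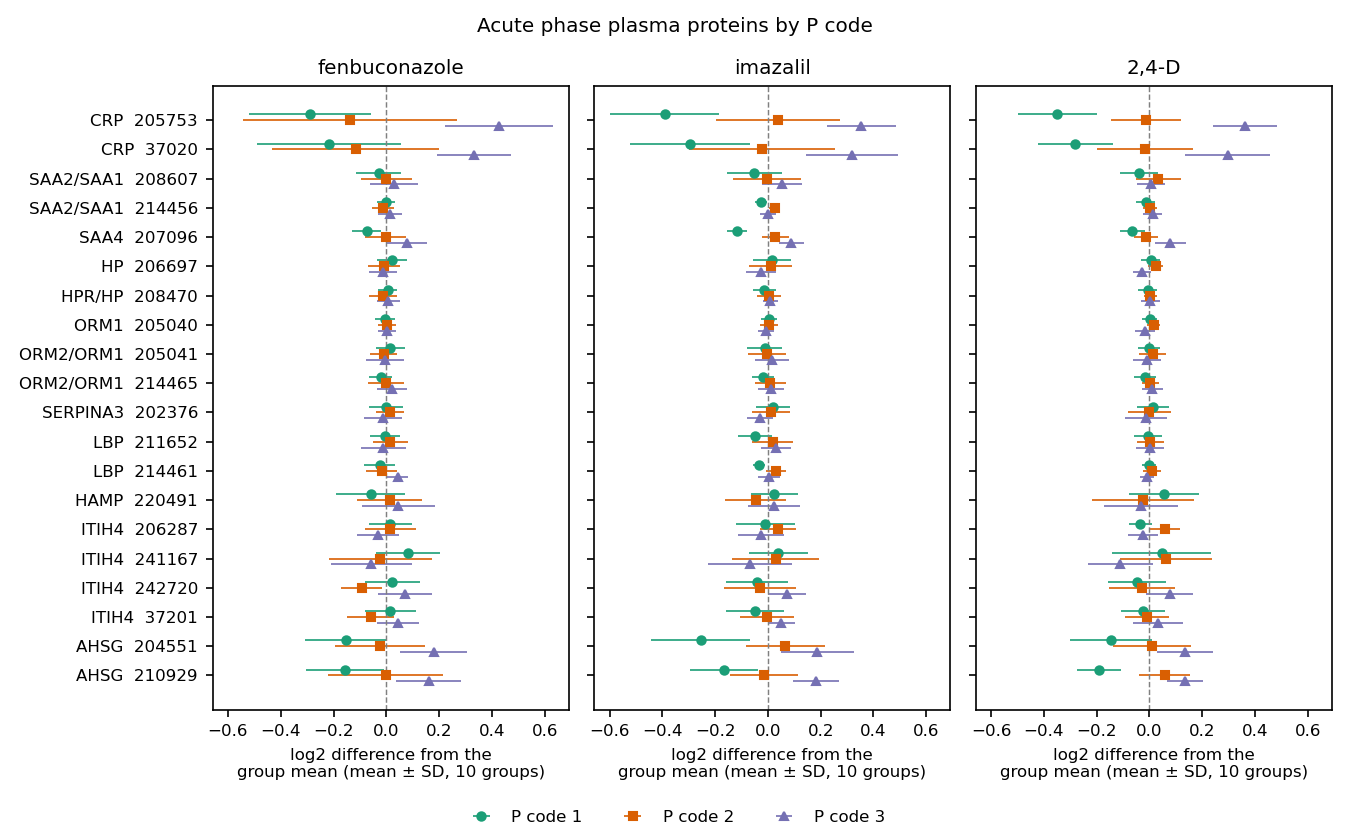
Difference of each P code from the mean of its group on the log2 scale (x axis) for the 20 probe sets (y axis), as the mean and SD over the 10 groups of each chemical's set. In all 3 panels P code 3 (triangles) lies right and P code 1 (circles) left for CRP and AHSG, by up to 0.74 between them, while the P codes of HP, ORM1, SERPINA3 and LBP lie together.

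The other genes of the response were taken from lists of related genes, 1 probe set per gene. None of 17 measured further positive acute phase proteins passed at 10 µM of any chemical, in limma with or without the block; 4, 3 and 3 of them had an unadjusted p under 0.05 with fenbuconazole, imazalil and 2,4-D. The gene of smallest adjusted p in this list with both fungicides was CP, the copper carrier ceruloplasmin, at -0.58 with fenbuconazole (limma adjusted p = 0.167), -0.63 with imazalil (adjusted p = 0.133) and -0.53 with 2,4-D (adjusted p = 0.684). The median log2 fold change of the list was -0.09, -0.09 and -0.02, beside 0.00, 0.01 and 0.00 over all genes. None of 14 negative acute phase and other plasma proteins passed either, with 0, 4 and 1 at an unadjusted p under 0.05, and their median was -0.05, -0.04 and 0.03. FETUB, the relative of AHSG, was at -0.34, -0.49 and -0.62 for fenbuconazole, imazalil and 2,4-D, with DMSO levels from 4.10 to 4.28 (limma adjusted p = 0.795, 0.504 and 0.668). TF, which encodes transferrin, was at -0.08, -0.17 and -0.06. Others were above their DMSO level with the fungicides: SERPINA6, which encodes the cortisol carrier transcortin and had the smallest adjusted p of the list with imazalil, was at 0.16 with fenbuconazole and 0.25 with imazalil (limma adjusted p = 0.866 and 0.324), and APOA2, an apolipoprotein of high density lipoprotein, at 0.30 and 0.11.

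Upstream, none of 14 genes of interleukin-6, JAK and STAT3 signalling, 13 of interleukin-1 and NF-kB signalling, 8 liver transcription factors and 14 genes of hepcidin control passed at 10 µM of any chemical. Of these 49 entries 3, 8 and 2 had an unadjusted p under 0.05 in limma with fenbuconazole, imazalil and 2,4-D. LIFR, a receptor of the interleukin-6 family, was at 0.31, 0.38 and -0.11 with fenbuconazole, imazalil and 2,4-D (limma adjusted p = 0.860, 0.394 and 0.974). CEBPA, a C/EBP factor of hepatocytes, was at 0.16, 0.33 and 0.17 with fenbuconazole, imazalil and 2,4-D (adjusted p = 0.921, 0.337 and 0.943). MYD88, the adaptor of interleukin-1 and Toll-like receptors, was at -0.18, -0.16 and -0.16. TFR2, the iron sensing transferrin receptor, was at -0.48, -0.68 and -0.66 (adjusted p = 0.805, 0.226 and 0.714).

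Markers of the cell types the culture could hold were compared beside AHSG. None of the 8 hepatocyte markers passed with any chemical (1, 1 and 0 at an unadjusted limma p under 0.05), and their mean level per array ran from 12.58 to 12.64 in DMSO and from 12.47 to 12.61 at 10 µM imazalil. None of the 4 biliary markers passed (0, 1 and 1 at an unadjusted p under 0.05), with KRT7 and EPCAM near background. With imazalil 1 of 5 mesenchyme markers fell, the collagen gene COL3A1 (-0.82, limma adjusted p = 0.00116), and the mean level of that list ran from 5.94 to 6.37 in DMSO and from 5.75 to 6.09 at 10 µM. Of the 7 immune cell markers CD14, a co-receptor for lipopolysaccharide that hepatocytes also express, rose with imazalil by 0.88 (limma adjusted p = 1.97e-06). The mean level of the immune list ran from 2.97 to 3.08 in DMSO and from 3.04 to 3.20 at 10 µM imazalil, with PTPRC, CD68, CD163, LYZ, CSF1R and CD3E below the array median. With fenbuconazole, where AHSG also fell, none of these markers passed (1 mesenchyme and 1 immune marker at an unadjusted p under 0.05), and with the block DCN, a proteoglycan of connective tissue, did (-0.41, limma adjusted p = 0.0211). The part of these markers in the AHSG result was not tested.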

How the data were processed

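RMA was run by the authors on each chemical's arrays together with the 3 DMSO arrays, and the deposited files hold its log2 values: 90 columns, of which 81 are treated and 9 are DMSO columns from 3 physical arrays. The submitters' notes name RMA and Partek without versions. Arrays have no counting depth, and their number limits the precision.

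Group means were fitted here with limma 3.58.1 in R 4.3.3 (package data.table, version 1.17.8) to the 30 arrays of each set, with no replicate term, and tested by moderated t and F, adjusted by Benjamini-Hochberg over 54715 probe sets with a threshold of 0.05. The code was tested on simulated data. Python 3.11.15 and matplotlib 3.10.9 made the plots. Symbols came from the platform annotation, and start regions from RefSeq on GRCh38.p14. The members and lists were chosen with earlier results of these data known. Every member probe set is described. Of each list, up to 3 genes with the smallest adjusted p per chemical may be named, each read from the brightest of its probe sets that carry 1 symbol.

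According to the methods, replicates were independent experiments on different batches of cells. The P code in the labels was read as the batch. Arrays with the same P code deviated together from their group means. Their average correlation was 0.0979, 0.094 and 0.117 for fenbuconazole, imazalil and 2,4-D. For different codes it was -0.0489, -0.0468 and -0.0582. Deviations from a group mean cancel within the group, so these negative values follow from the same-code values and are no separate evidence. For 2,4-D the number in the title differs from the P code at most concentrations (average for the same title number 0.000718). The 10 µM and DMSO arrays of P code 2 correlated at -0.184 with 2,4-D. The other same-code pairs of 10 µM and DMSO arrays ranged from 0.0120 to 0.246. A pair of 2,4-D samples of P code 2, at 0.001 and 0.003 µM, share a sample code. Alternatives were the P code as a block, each P code left out, a filter on dim probe sets, quantile normalization, an intensity trend with a robust prior, another reference group and no subtraction between sets.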

Additional observations from a re-analysis of the deposited data

Results flagged for a closer look

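Differences between chemicals at 10 µM passed the limma test for 3 member probe sets and are listed because the effect of 1 chemical differed from that of another. AHSG was lower with imazalil than with 2,4-D by -1.07 on the log2 scale for probe set 204551_PM_s_at and by -1.0 for 210929_PM_s_at (limma adjusted p = 0.00202 and 0.000631), and each of the 3 imazalil arrays was below each of the 3 2,4-D arrays. ITIH4 was lower with fenbuconazole than with 2,4-D by -0.455 for probe set 37201_PM_at (limma adjusted p = 0.00885), while the other ITIH4 probe sets did not pass. No group held the 4 arrays that a search for outlying arrays needs.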

How the results depend on the processing

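The direction of the called AHSG and ITIH4 differences was the same under every alternative run, and 81 counts of called members stayed within 1.5 times the count reported while 30 did not. With the P code as a replicate block, 4 members instead of 1 passed the F test and 1 instead of 0 the trend with fenbuconazole, and 3 instead of 1 the difference of fenbuconazole from 2,4-D. Of all probe sets, 180 instead of 127 passed that F test under the block and 40 instead of 26 the trend. At 10 µM 256 instead of 189 passed with fenbuconazole and 317 instead of 222 with imazalil. Under the block, CRP passed at 10 µM with fenbuconazole (37020_PM_at, -1.09) and imazalil (205753_PM_at, -0.76). Beside these and the CRP calls with imazalil by F and by the trend, the block changed no other member's call, and by title number it gave 0 members for 2,4-D.

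Leaving out each P code moved the fenbuconazole count at 10 µM to between 0 and 1, the F count to 0 and the P code count to between 0 and 4. For imazalil these counts ran from 0 to 2, 0 to 2 and 0 to 5, and the trend from 0 to 1. The P code count of 2,4-D ran from 1 to 4, the count of fenbuconazole against 2,4-D was 0 each time, and that of imazalil against 2,4-D ran from 0 to 2. Fits without a P code hold fewer arrays. At 10 µM they called 64 to 127 of all probe sets with fenbuconazole and 48 to 87 with imazalil, where 189 and 222 passed with all P codes. Quantile normalization gave 2 members by F with fenbuconazole. The intensity trend with a robust prior gave 1 at 10 µM and 1 by the trend. The dim filter gave 5 members between P codes in the 2,4-D set. The reference of the 4 lowest concentrations gave 5 at 10 µM fenbuconazole. It also called 514 of all probe sets there instead of 189, 557 instead of 222 with imazalil and 91 instead of 0 with 2,4-D. Without subtraction of the DMSO mean 3 members differed between fenbuconazole and 2,4-D. The causes of these moves were not tested.

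Of the uncalled fold changes, 47 changed sign under an alternative, all with a reported size of at most 0.0899. Left-out P codes gave ITIH4 37201_PM_at with 2,4-D from -0.0163 (without replicate 1) to 0.147, and -0.0113 without replicate 3. They gave LBP 214461_PM_at from -0.0348 to 0.00457 (without replicate 2) with imazalil and from -8.64e-05 (without replicate 1) to 0.102 with 2,4-D, and LBP 211652_PM_s_at from -0.0221 (without replicate 2) to 0.083 with 2,4-D. Against the 4 lowest concentrations LBP 214461_PM_at with imazalil was 0.015 and LBP 211652_PM_s_at with 2,4-D was -0.0149.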
